A study of Nicotiana tabacum with 39 samples.

Results

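The step from 1 to 2 h of light was examined in greening leaves of Nicotiana tabacum, cultivated tobacco, with the 3 libraries harvested 2 h after the return to light set against the 3 libraries harvested at 1 h. These are 6 of the 39 libraries of a time course in 13 groups of 3. Of the 53725 transcripts deposited, the 42181 that passed a filter on low counts were tested. Plants of both groups grew on soil in long days, with 16 h of light at 350 uE/m2/s, until they were nearly mature, and then spent an extended period in the dark. How long it lasted is not given in the sources consulted. The control plants had no extended darkness, and another group was taken as that darkness ended (0 min). Each library is polyA RNA from 1 pool, made from the middle part of 2 young leaves a plant and of 3 plants, so replicate error here is the difference between such pools. No plants kept in darkness were sampled beside the 1 h and 2 h harvests, and the clock time of the control is not given, so light and time of day cannot be told apart.

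De-etiolation is the change of a pale, dark-adapted leaf into a green one. In flowering plants a late reduction step of chlorophyll synthesis needs light. Phytochromes and cryptochromes, the red and blue light receptors, switch off a gene programme that dark-grown tissue keeps running. Genes for light harvesting, for the photosystems and for carbon fixation are known to be induced as etioplasts become chloroplasts. The deposited tables name their transcripts by NCBI GI number only, and 0 of the 53725 identifiers could be paired with the 79372 genes of the reference table. The groups below are therefore defined by what darkness or early light had done to a transcript. No gene name, function, chromosome position or sequence is given, and the labelled tissue could not be checked against marker genes.

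Library totals were 18928595, 18003739 and 37269515 counts at 2 h (replicates 1 to 3) and 30337704, 17889302 and 28062642 counts at 1 h, within a range of 15844109 to 37269515 over the whole series. The 10 most abundant transcripts took between 3.46% and 4.28% of the counts at 2 h and between 4.08% and 6.19% at 1 h.

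The 1 h and 2 h libraries lay apart along 1 line, and by correlation 1 of them stood nearer to the other group than its own. On a straight line between the mean profiles at 30 min (0%) and 4 h (100%), which use none of the 6 libraries, those at 2 h reached 68.0%, 57.4% and 75.3% and those at 1 h 24.0%, 11.8% and 39.8%. The ranges of both times did not overlap. The line does not order the earliest harvests by time, since the 0 min libraries stood at 13.1%, 5.56% and 22.5%. Their range overlapped that of the 1 h libraries. At 0, 10 and 30 min, too, replicate 2 was the lowest and replicate 3 the highest of its group. At 30 min they stood at -11.3% and 10.9%. At 5 min and 4 h replicate 2 was again the lowest, but replicate 1 was the highest. The cause of this order was not tested. Replicate 3 at 1 h correlated more closely with each library at 2 h (Pearson r of log2 CPM over transcripts, lowest 0.966, highest 0.970) than with the other 1 h libraries (lowest 0.949, highest 0.961). Libraries at 2 h correlated with each other at between 0.979 and 0.981. CPM stands here for the count scaled to a common library size, with TMM, a trimmed mean of log ratios, as the scaling factor.

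**Figure D1:**
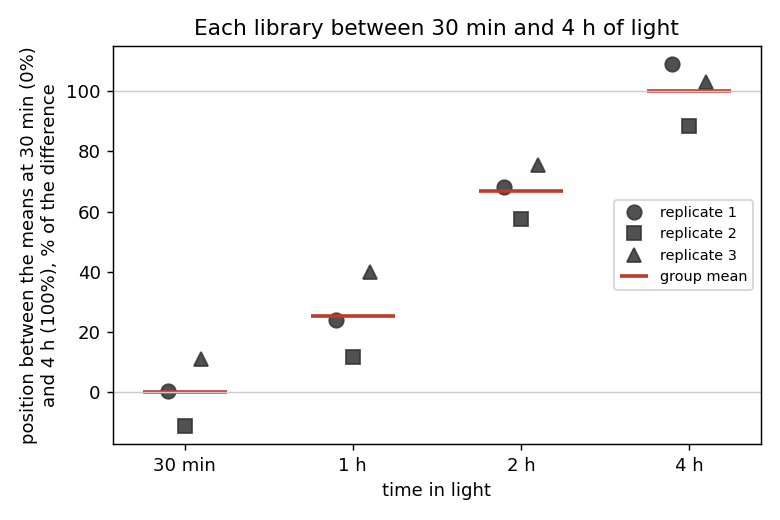
Position of each library (points, 1 marker shape per replicate number) and of each group mean (red lines) along the straight line between the mean profiles at 30 min and 4 h of light, in percent of that difference over all transcripts tested. The 2 h libraries lie between 57.4% and 75.3% and the 1 h libraries between 11.8% and 39.8%, with replicate 3 highest at both times.

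Left out of the choice of transcripts, replicate 3 at 1 h stood a median of 54.7% of the way to the 2 h mean from the mean of the other 1 h libraries, over 3645 transcripts called and at least 2-fold different without it. The same measure was 14.2% for replicate 1 at 1 h (1957 transcripts) and -17.8% for replicate 2 (1275 transcripts). For the 2 h libraries it was 96.7%, 70.7% and 97.6%, where 100% is the mean of the other 2 h libraries. Replicate 3 was further along in transcripts that went up over the step (median 65.4%) than in those that went down (48.2%). The labels give no reason for its place or for the order of replicate numbers given above.

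Over the step 6631 of the 42181 transcripts tested changed, which is 15.7% (edgeR quasi-likelihood test over all 39 libraries, Benjamini-Hochberg adjusted p below 0.05). At 2 h 3037 of them were higher than at 1 h (7.2% of those tested) and 3594 were lower (8.52%). Most changes were small. Rises had a median log2 difference of 0.74 and falls one of -0.86, and 864 rises (2.05%) and 1341 falls (3.18%) were at least 2-fold. Changes reached 4-fold for 83 rises and 147 falls, and 8-fold for 16 rises and 16 falls. Falls thus outnumbered rises at the 2-fold and 4-fold limits and not at the 8-fold limit.

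The number of calls rested on single libraries. Without replicate 3 at 1 h it was 8917, with 4197 higher and 4720 lower, and 1682 rises and 1988 falls were at least 2-fold. Of the 6631 transcripts, 5818 were also called then, 5818 of them in the same direction. It was 3226 without replicate 2 at 1 h, with 1278 at least 2-fold, 4152 without replicate 1 at 2 h and 3771 without replicate 3 at 2 h. Leaving a replicate number out of all groups gave 1999 for replicate 1 and 3334 for replicate 3, and the 6 libraries fitted alone gave 2116. DESeq2 called 7110 and turned the balance, with 3663 higher and 3447 lower, so no direction can be called the more frequent one over all changes. Falls outnumbered rises among changes of at least 2-fold by DESeq2 as well, with 1242 against 950.

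Replicates did not overlap for 5947 of the 6631 transcripts that changed, where 27.6% of all transcripts tested had no overlap. That held for 806 of the 864 rises and 1222 of the 1341 falls of at least 2-fold. A further 5709 transcripts had separate replicates but did not pass the test. Deeper counts gave more calls. Among the 10546 transcripts with the lowest mean count over the series (1.51 to 36.1 counts a library) 7.49% changed, and among the 10545 with the highest 21.0% did. The median SE of a log2 difference was 0.40 in the lowest class and 0.17 in the highest, so changes of moderate size were called less often in sparse transcripts. Changes of at least 2-fold did not follow the number of calls. The lowest class held 180 such rises and 465 such falls, and the highest 206 and 189. Median log2 differences of called rises and falls were 1.35 and -1.27 in the lowest class, and 0.64 and -0.66 in the highest.

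Nearly all changes were in RNA counted at both times. Among transcripts tested, 0 had no count in any 1 h library and at least 10 counts in each 2 h library, and 0 had the reverse pattern. With 3 counts or fewer over the 1 h libraries 6 transcripts rose, and with 3 or fewer over the 2 h libraries 9 fell. Transcripts that rose took 15.0%, 14.0% and 14.3% of all counts at 2 h, against 8.74%, 7.12% and 9.37% at 1 h. Those that fell took 5.21%, 5.84% and 4.72% at 2 h, against 9.28%, 9.78% and 8.45% at 1 h. These shares describe the transcripts that the same libraries had selected.

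Set beside the neighbouring steps in the fit of all libraries, the hour from 1 to 2 h moved more transcripts than either of the shorter steps before it. Between 0 and 30 min 2484 transcripts (5.89%) changed, between 30 min and 1 h 4051 (9.6%), and between 2 and 4 h 6932 (16.4%). Steps differ in length and share libraries with their neighbours, so these counts are only set side by side. In some settings the count from 1 to 2 h was below 4051, such as 3226 without replicate 2 at 1 h. The neighbouring steps were not recomputed, so their order under those settings is not known. Rises of at least 2-fold numbered 602 (1.43%), 796 (1.89%), 864 (2.05%) and 950 (2.25%) over the 4 steps in order of time, and falls 327 (0.775%), 632 (1.5%), 1341 (3.18%) and 1363 (3.23%). Large falls thus became more frequent than large rises from the step that ends at 2 h.

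**Figure D2:**
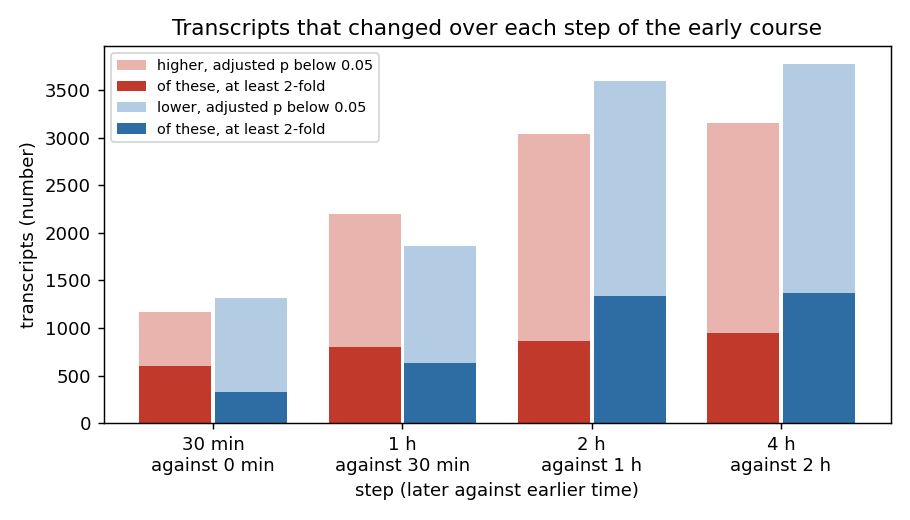
Number of transcripts that changed over each of 4 consecutive steps (x axis), higher (red) or lower (blue) at the later time. Pale bars show all transcripts with an adjusted p below 0.05 and dark bars those of them that differed at least 2-fold. The step from 1 to 2 h has 3037 higher and 3594 lower, with 864 and 1341 of at least 2-fold.

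Transcript levels stood nearer to control at 2 h than at 1 h. Against control 11871 transcripts (28.1%) differed at 2 h, of which 6453 were higher (15.3%) and 5418 lower (12.8%). At 1 h 18755 (44.5%) did, with 10221 higher (24.2%) and 8534 lower (20.2%). Differences reached 2-fold for 2221 higher (5.27%) and 2100 lower (4.98%) transcripts at 2 h, against 4404 higher (10.4%) and 3780 lower (8.96%) at 1 h. Both comparisons share the control libraries. The median distance from the control mean over all transcripts, as an absolute log2 difference, was 0.43, 0.46 and 0.32 in the 2 h libraries and 0.55, 0.62 and 0.44 in the 1 h libraries. Replicate 3 at 1 h (0.441) was about as near to control as replicate 1 at 2 h (0.430), and nearer than replicate 2 at 2 h (0.464). Without replicate 2 at 2 h 7723 transcripts differed at 2 h, and without replicate 1 of all groups 4871 did at 2 h and 10580 at 1 h. The 1 h and control libraries fitted alone gave 12091 at 1 h. The share of higher transcripts among these differences was 54.4% at 2 h and 54.5% at 1 h, and with library size as the sole scaling it was 72.5% and 70.1%.

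Transcripts that darkness had raised came down over the step. The list holds the 5208 transcripts that were called and at least 2-fold higher at 0 min than in control (12.3% of those tested), a contrast that shares no library with the step. From 1 to 2 h 1695 of them fell (32.5%, against 8.52% of all tested) and 50 rose (0.96%, against 7.2%). Their median log2 difference was -0.48, against -0.0090 over all transcripts. Relative to the mean at 30 min the list's median stood at -0.85, -0.69 and -0.96 in the 2 h libraries and at -0.35, -0.24 and -0.52 in the 1 h libraries. All 2 h libraries were below all 1 h libraries. This list made up 47.2% of all falls over the step. The size of the list changes with the setting. Without replicate 2 at 1 h 912 of 5026 members fell, and without replicate 3 at 2 h 901 of 5016. Without all libraries numbered 1 or numbered 3 it was 628 of 4566 and 956 of 4934, and without replicate 3 at 1 h 1936 of 5255. The 6 libraries fitted alone gave 674 of the 4894 members tested there.

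Transcripts that darkness had lowered went up over the same hour. Of the 4821 that were called and at least 2-fold lower at 0 min than in control (11.4% of those tested), 1113 rose (23.1%) and 43 fell (0.892%). Their median log2 difference was 0.42. Relative to the 30 min mean the median stood at 0.69, 0.52 and 0.89 in the 2 h libraries and at 0.27, 0.215 and 0.41 in the 1 h libraries, again without overlap. They made up 36.6% of all rises. This list, too, changes in size with the setting. Rises were 606 of 5094 without replicate 2 at 1 h, and 719 of 4859 and 632 of 5067 without replicate 1 or 3 at 2 h. They were 390 of 4248 and 512 of 4349 without replicate 1 or 3 of all groups. With the 6 libraries alone 473 of the 4369 members tested rose. With library size as the sole scaling it was 670 of 3155, and without replicate 3 at 1 h 1300 of 4912. In each of these settings fewer members fell than rose.

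**Figure D3:**
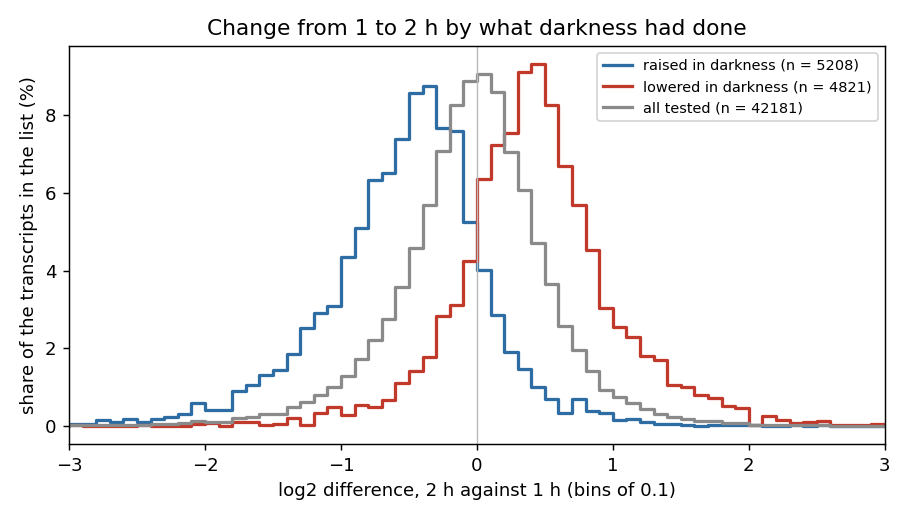
Distribution of the log2 difference between 2 h and 1 h (x axis, bins of 0.1) for transcripts raised at least 2-fold in darkness (blue, n = 5208), lowered at least 2-fold in darkness (red, n = 4821) and all transcripts tested (grey, n = 42181), as a share of each list (y axis). The medians lie at -0.48, 0.42 and -0.0090.

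Part of the step concerned transcripts not called between 0 min and control. Of these 21254, which are 50.4% of all tested, 871 rose (4.1%, against 7.2% of all tested) and 887 fell (4.17%, against 8.52%). They held 28.7% of all rises and 24.7% of all falls, below their share of the transcripts. Changes of at least 2-fold in this list were 243 rises and 391 falls, where 2.05% and 3.18% of all tested had such changes. Not called does not mean unchanged by darkness, since the median log2 difference of 0 min against control was -0.26 for the 243 rises and 0.31 for the 391 falls, against 0.027 over all transcripts. Of these 391 falls, 191 (48.8%) had been called above control at 30 min, against 27.0% of all transcripts tested, and 3 below it. At 4 h 79 of them (20.2%) were below control, against 8.32% of all tested, and 6 above it. Of the 243 rises, 77 (31.7%) had been below control at 30 min, against 24.4% of all tested, and 11 above it. At 4 h 80 of the rises (32.9%) were above control, against 8.89% of all tested, and 4 below it. These positions use no library of the step, but they share the control libraries with the contrast that defined the list. The shares of all tested also include transcripts called at 0 min. Shares over the 21254 alone were not computed, so those of all tested are not a matched background.

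Transcripts that had changed by 30 min are a further group, where light and time of day cannot be told apart either. Transcripts called and at least 2-fold higher at 30 min than at 0 min numbered 602 (1.43% of those tested), and 111 of them (18.4%, against 8.52% of all tested) fell from 1 to 2 h while 19 (3.16%, against 7.2%) rose. Their median log2 difference over the step was -0.37. Between same-numbered libraries of 2 h and 1 h it was -0.090, -0.34 and -0.49 in replicates 1 to 3, so replicate 1 was near 0. The 327 transcripts (0.775%) lowered at least 2-fold by 30 min had a median near 0, at -0.0032, with 40 falls (12.2%, against 8.52% of all tested) and 26 rises (7.95%, against 7.2%, which is near the background). Neither contrast shares a library with the step.

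Seen from the step, 616 of the 864 transcripts that rose at least 2-fold (71.3%) had been below control at 30 min and 39 (4.51%) above it. At 4 h 208 (24.1%) were above control, 40 (4.63%) below and 616 (71.3%) not called. Over all transcripts 24.4% were below control at 30 min and 8.89% above it at 4 h. Of the 1341 that fell at least 2-fold, 1073 (80.0%) had been above control at 30 min, against 27.0% of all transcripts. By 4 h 177 of the falls (13.2%) were below control and 62 (4.62%) above it, against 8.32% and 8.89% of all. Without replicate 3 at 1 h the step held 1682 such rises, of which 64.3% were below control at 30 min and 14.9% above it at 4 h, and 1988 falls, of which 80.1% were above control at 30 min and 10.9% below it at 4 h.

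The course of these transcripts was followed in libraries that had not chosen them. Each list was chosen without 1 replicate number and its median log2 CPM, relative to control, was then measured in that number. Rises of at least 2-fold (475 to 837 transcripts) stood level from 0 min (-1.02 ± 0.34) to 30 min (-1.04 ± 0.41), with medians of -0.70 ± 0.58 after 1 h and 0.31 ± 0.27 after 2 h (SD, n = 3). Later medians were 0.36 ± 0.06 (4 h), 0.37 ± 0.18 (8 h) and 0.061 ± 0.068 (16 h). Over the step itself their median changes in the replicates not used were 1.16, 1.39 and 0.70. Replicate 3 gave the smallest, and there 87.3% of the list had a positive difference, against 97.3% and 97.6% in replicates 1 and 2.

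Falls of at least 2-fold (637 to 1124 transcripts) drifted upward before they dropped. Their median was 1.31 ± 0.20 above control at 0 min, 1.56 ± 0.23 at 30 min, 1.19 ± 0.31 at 1 h and 0.13 ± 0.09 at 2 h (SD, n = 3). They stood at -0.18 ± 0.06 at 4 h and -0.27 ± 0.26 at 8 h, and at 0.51 ± 0.27 in the last harvest. Scaled by library size alone, the values at 4 h and 8 h were -0.021 and -0.077, and 0.54, 0.56 and 0.59 were reached by the rises at 2, 4 and 8 h. Median changes of the falls over the step were -1.18, -1.28 and -0.81 in replicates 1 to 3, and between 94.7% and 96.7% of each list had a negative difference.

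**Figure D4:**
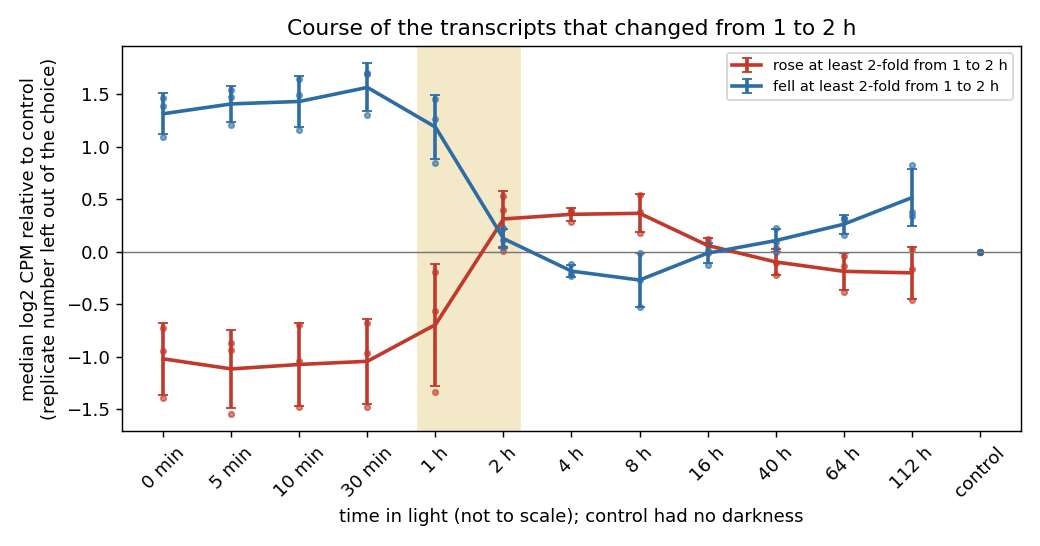
Median log2 CPM relative to control (y axis) of transcripts that rose (red) or fell (blue) at least 2-fold from 1 to 2 h (shaded), at each harvest (x axis, not to scale). Points are the 3 replicate numbers, each left out when its list was chosen, and lines with bars are their mean and SD. Rises stand at 0.31 at 2 h, against -0.70 at 1 h, and falls at 0.13 at 2 h, against 1.19 at 1 h.

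Whether the step differed from its neighbours was tested transcript by transcript, per step and not per minute. Steps differ in length, so a change at a steady rate can also be called different. For 660 transcripts (1.56% of those tested) the change from 1 to 2 h differed from the change from 30 min to 1 h, with 464 lower (1.1%) and 196 higher (0.465%) in the later step. The 464 had a median log2 change of -0.67 over the later step and 0.865 over the earlier one, and the 196 had 0.66 and -1.02. These medians come from the libraries that chose the sets, and the 1 h libraries enter the 2 steps with opposite signs, so opposite medians are favoured by the choice. Against the step from 2 to 4 h, 2017 transcripts (4.78%) differed. Of these, 1425 (3.38%) had a lower change in the later step (median -0.865 from 2 to 4 h and 0.64 from 1 to 2 h) and 592 (1.4%) a higher one (0.65 and -0.82). Both tests use the middle time with double weight, so a single library there moves the counts. Without replicates 1, 2 and 3 at 1 h, left out 1 at a time, the 660 became 347, 226 and 1099, and without replicate numbers 1, 2 and 3 of all groups 118, 257 and 94. The 2017 became 1073, 1223 and 1335 without replicates 1, 2 and 3 at 2 h, and 386 and 931 without replicate numbers 1 and 3. The libraries of the groups concerned, fitted alone, gave 294 and 489. DESeq2 counted 905 and 2407, and the share of higher changes among the 905 was 39.8% in place of 29.7%.

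The largest changes are shown by 4 transcripts, 2 rises and 2 falls, the largest of each among those that averaged 10 CPM or more in whichever group was higher, had at least 10 counts in the lower group and showed no overlap of replicates. That condition was met by 1784 rises and 1558 falls. The 10th largest had log2 differences of 2.50 and -2.61. What these transcripts encode is not known from the files.

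Transcript 698537793 stood at 36.5, 34.8 and 68.8 CPM at 2 h, against 2.16, 2.34 and 5.72 CPM at 1 h, where replicate 3 was the highest at both times. The difference was 13.5-fold (log2 3.76, SE 0.67, adjusted p = 0.000268, edgeR, n = 3). It was among the transcripts lowered in darkness, with 3.17 ± 3.77 CPM at 0 min against 127.5 ± 49.9 CPM in control (SD, n = 3). Up to 30 min it showed no rise that passed the test (1.16 ± 0.76 CPM at 30 min, log2 -1.41 against 0 min, adjusted p = 0.336, edgeR). It averaged 82.7 ± 27.4 CPM at 4 h, and in the last harvest its replicates were far apart, with 401.4, 59.4 and 57.9 CPM. Against control the difference at 2 h was log2 -1.45 (SE 0.59, adjusted p = 0.0648, edgeR).

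Transcript 698519060 had 26.4, 20.6 and 48.3 CPM at 2 h, against 2.07, 1.5 and 3.86 CPM at 1 h. It rose 12.5-fold (log2 3.65, SE 0.50, adjusted p = 1.15e-05, edgeR, n = 3). The level at 30 min had been 0.98 ± 0.22 CPM and the control level 80.9 ± 27.4 CPM (SD, n = 3). At 2 h it was still 2.54-fold below control (log2 -1.34, SE 0.43, adjusted p = 0.0193, edgeR). It averaged 42.2 ± 14.8 CPM at 4 h (SD, n = 3).

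Transcript 698538099 had 60.7, 37.7 and 48.1 CPM at 2 h, against 379.4, 484.9 and 357.4 CPM at 1 h, and the groups were far apart. It fell 8.34-fold (log2 -3.06, SE 0.39, adjusted p = 4.03e-06, edgeR, n = 3). Darkness had raised it, to 681.0 ± 33.4 CPM at 0 min against 111.1 ± 12.6 CPM in control, and it stood at 1106.2 ± 87.8 CPM at 30 min (SD, n = 3). It passed below the untreated level in the hour studied, with log2 -1.19 at 2 h and 1.87 at 1 h against control (SE 0.37 and 0.37, adjusted p = 0.0153 and 0.000161, edgeR). From 4 to 64 h its mean stayed between 31.2 and 56.2 CPM.

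Transcript 698529707 had 4.06, 3.48 and 5.60 CPM at 2 h, against 29.6, 51.0 and 30.1 CPM at 1 h. It fell 8.27-fold (log2 -3.05, SE 0.58, adjusted p = 0.000494, edgeR, n = 3). Darkness had not raised it by the test (log2 0.72, SE 0.54, adjusted p = 0.279, edgeR), and at 1 h it was above control (log2 1.88, SE 0.55, adjusted p = 0.0059, edgeR). Between 30 min and 1 h its difference was log2 0.31 and did not pass the test (SE 0.52, adjusted p = 0.797, edgeR). Its mean was lowest at 8 h, with 1.23 ± 1.17 CPM (SD, n = 3). All 4 transcripts kept their call without any 1 library of the step, with log2 values from 3.37 to 4.39 and from 3.21 to 4.12 for the rises and from -3.24 to -2.90 and from -3.29 to -2.74 for the falls. The low and high ends of both rises came from leaving out replicate 3, at 2 h and at 1 h.

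**Figure D5:**
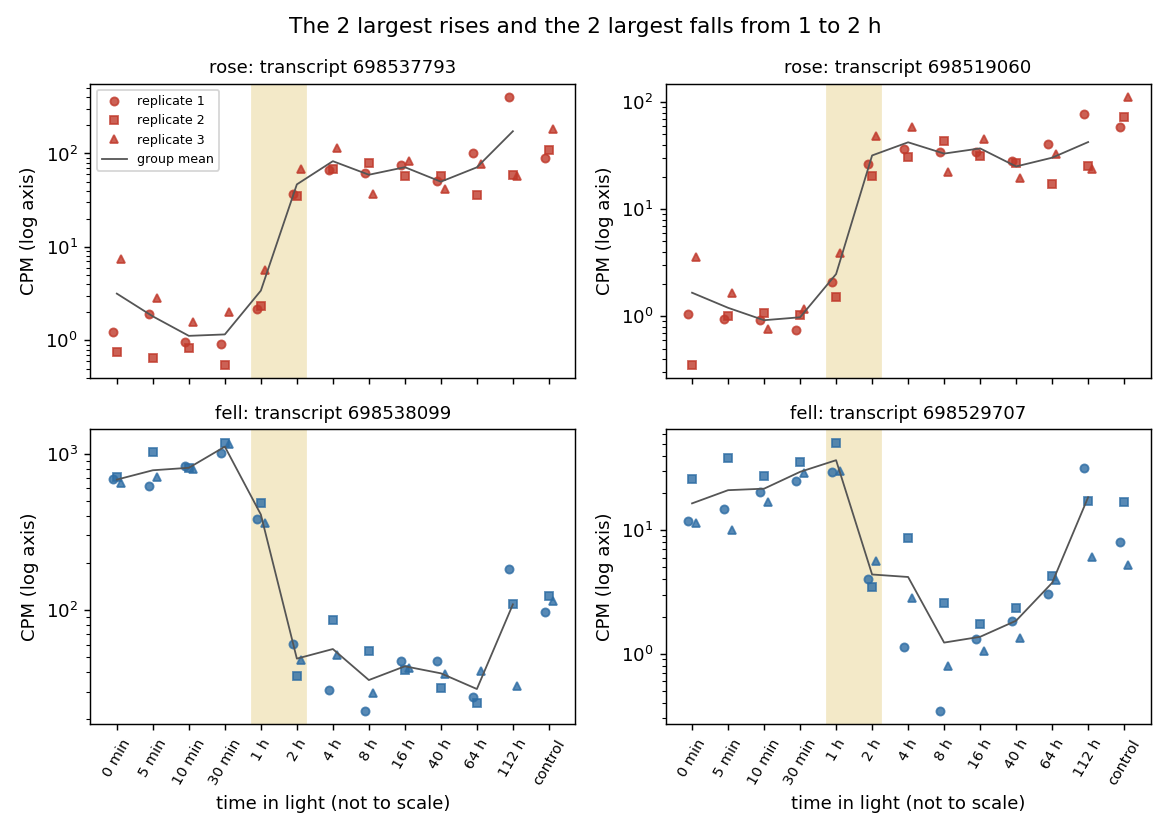
CPM of the 2 largest rises (red) and the 2 largest falls (blue) in every library (points, 1 marker shape per replicate number) and the group mean (line), on a log axis, at each harvest (x axis, not to scale), with control at the right and the step from 1 to 2 h shaded. Transcript 698537793 averages 46.7 CPM at 2 h and 3.41 CPM at 1 h, and transcript 698538099 averages 48.8 CPM at 2 h and 407.2 CPM at 1 h.

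Some changes stood next to each other in the deposited order. Among tested transcripts in that order, 44.6% of the rises and 54.5% of the falls had a neighbour that moved the same way, where 7.2% and 8.52% of all tested rose and fell. A neighbour on either side counted, so these rates of single transcripts are lower than a matching background. How many like neighbours position alone would give was not tested. The 3037 rises formed 2216 runs and the 3594 falls 2312. Neighbours had a median Pearson correlation of 0.38 over the 39 libraries, so the counts of transcripts are not counts of independent genes, and reads shared between near-identical copies could have been split between neighbours. The longest run of falls of at least 2-fold held 24 transcripts, chosen for its length after the values were seen. Its log2 differences lay between -1.99 and -1.10, and its members' median correlation with each other was 0.949. Summed over the run, the level was 56.6, 83.7 and 58.4 CPM at 2 h, against 199.0, 254.0 and 132.0 CPM at 1 h, where replicate 3 was the lowest. All 24 were at least 2-fold higher at 0 min than in control. In control the sum was 48.2, 65.9 and 54.6 CPM.

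A run of 8 rises of at least 2-fold was the longest of its kind, also chosen for its length after the values were seen. Its members' median correlation with each other was 0.736. Its summed level was 17.1, 20.7 and 23.3 CPM at 2 h, against 3.77, 3.42 and 7.89 CPM at 1 h. The sum was 10.8, 10.5 and 9.12 CPM in control and 8.96, 14.4 and 15.1 CPM at 4 h, all below the 2 h libraries. High values at 2 h are favoured by the choice of the run. In the last harvest the sum was 17.1, 8.82 and 10.3 CPM. Log2 differences in the run were between 1.51 and 2.68. Of its 8 members, 1 had been at least 2-fold lower at 0 min than in control. Its mean counts were small, between 18.8 and 53.3 a library for each transcript.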

How the data were processed

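Raw whole-number counts per transcript were deposited by the authors, 1 table for each of the 39 libraries, with no normalization visible in the values. Reads were 100 bp long and single-end, from TruSeq libraries, per the labels' protocols. The submitters' processing notes list FastQC 0.10.1, BWA 0.70 and SAMtools 1.0 with no role for any of them. Nothing consulted gives the sequences mapped to, the counter, its strand setting or how it treated reads with several matches.

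The filterByExpr rule of edgeR 4.0.16 (R 4.3.3, minimum count 10, minimum total 15) kept 42181 of 53725 transcripts with 99.9% of all counts. All 39 libraries, scaled by TMM, entered 1 quasi-likelihood model (glmQLFit) with a mean per group, 13 in all, and each contrast had its own glmQLFTest. Benjamini-Hochberg adjustment ran over all transcripts tested. The SE is the absolute log2 difference divided by the square root of F. CPM on a log scale carry a prior count of 1. The fit was tested on simulated data. Groups come from the sample titles. Named transcripts follow the rule given beside them, kept to 2 in each direction because identifiers carry no names. The step, the lists and the tests were chosen with earlier results of these data known, and the contrasts of 30 min and 4 h with control were added after the data were seen. DESeq2 1.42.0, other scaling, no filter, a replicate term, fewer libraries and a test against 1.2-fold were tried as alternatives.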

Additional observations from a re-analysis of the deposited data

Results flagged for a closer look

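The change over the step from 1 to 2 h differed from that over the step before it for 660 transcripts, and from that over the step after it for 2017 transcripts. Both were brought up by a direct test of the difference between steps (edgeR, adjusted p below 0.05), and both counts move with single libraries as given beside them. The test compares whole steps of unequal length, not rates.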

How the results depend on the processing

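Among the values recomputed under another setting 149 stayed within their limits and 56 moved. Only medians and the log2 differences of the 4 named transcripts could change sign, and 0 did. A count was taken as moved beyond 1.5 times, a median beyond the SD of same-numbered differences between 2 h and 1 h. A named transcript stayed if it kept its sign and call. The balance of rises and falls was not judged. It turned with DESeq2, without replicate 3 at 2 h (1897 higher, 1874 lower) and without replicate 2 of all groups (2389 higher, 2077 lower). With the libraries of the groups concerned fitted alone the counts were 2116 changed over the step (1327 at least 2-fold), 12091 between 1 h and control, 294 and 489 for the differences from the step before and the step after, and 674 falls and 473 rises among transcripts raised and lowered in darkness. Fewer residual degrees of freedom and fewer transcripts enter these fits. A test against 1.2-fold gave 3325 changed. Scaling by library size only gave a median of -0.426 for the dark-raised list and 670 rises in the dark-lowered list, whose members also change with the setting; the median of all transcripts over the step was then -0.035 in place of -0.0090. Lists of at least 4-fold gave held-out medians of 1.83 and -1.64, by construction larger. Leaving out 1 library of the step or 1 replicate number gave 1999 to 8917 changed over the step (1114 to 3670 at least 2-fold), 4871 to 12391 between 2 h and control, 10580 to 19834 between 1 h and control, 94 to 1099 and 386 to 2511 for the step differences, 628 to 1936 falls (median -0.552 to -0.419) in the dark-raised list and 390 to 1300 rises (median 0.284 to 0.511) in the dark-lowered list. The cause was not tested. Both dark lists also differ in size between these settings. Without replicate 3 at 1 h, the shares of at least 2-fold rises below control at 30 min and above it at 4 h were 64.3% and 14.9%. No filter on low counts and DESeq2 moved none of these counts beyond 1.5 times. For the step DESeq2 gave no adjusted p for 1636 transcripts, which count as not called.

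Same-numbered libraries of 2 h and 1 h deviated together with correlations of 0.064, 0.18 and 0.28, each positive. Not every pair passed a limit of 0.1, so the main fit does not pair the samples. It treats libraries with the same number as unrelated, which these values do not establish. With a replicate block 9011 transcripts changed over the step, and the difference from the step before rose to 1336 transcripts in place of 660. Replicate 1 at 2 h correlated best with replicate 1 at 1 h (others -0.041 and -0.0092), and replicates 2 and 3 with their own numbers. Depth limits sparse transcripts, as given by classes of mean count.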
